A study of Rattus norvegicus and Mus musculus with 56 samples.

Results

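The 12 libraries described here are the mouse libraries of spared nerve injury (SNI), 6 from the operated (ipsilateral) and 6 from the unoperated (contralateral) side of the dorsal horn, out of 56 libraries in the whole series. They were chosen by species, surgery and side as the labels give them, with no measured value involved. All came from WT mice of the C57BL/6 strain, and each side holds 3 F and 3 M libraries. Tissue was the dorsal horn of lumbar segments 4 and 5, taken on postoperative day 7, and polyadenylated RNA was sequenced. The 12 mouse libraries of sham surgery, also 6 from each side and from the same strain, day and tissue, served only to show the side difference without nerve injury. Side and the sham operation cannot be told apart in them. The labels state no age, no number of animals behind a library and no link between the libraries of both sides of an animal, so the sides could not be paired and p-values reflect only how these libraries vary. The series asked how dorsal horn transcription responds to nerve injury in both sexes of mice and rats, with pain relief in view. The comparison here asks which transcripts of the dorsal horn differ between the injured and the intact side of operated mice.

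SNI severs some branches of the sciatic nerve, spares another and leaves the paw hypersensitive. Fibres of the cut nerve end in the dorsal horn of the same side. There the microglia, the resident macrophages of the spinal cord, respond to the distant injury of axons. Injured sensory neurons make colony stimulating factor 1, which acts on its receptor on microglia. Microglia in turn release proteases, cytokines and growth factors that act on neurons of the pain pathway. Motor neurons, whose axons also run in the sciatic nerve, lie in the neighbouring ventral horn and express the same injury genes when their axons are cut.

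Levels are in CPM, gene reads scaled to a common library total, and depend on transcript length, so they are not compared between genes. Fold changes are on the log2 scale, ipsilateral minus contralateral, with the standard error (SE) of the model and with sex as a covariate. The call of a gene required an adjusted p under 0.05 over all genes tested (limma with Benjamini-Hochberg adjustment). In bulk tissue, more cells of a type and more RNA per cell cannot be told apart.

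Limma tested 17634 genes. It called 394 higher on the operated side, 2.23% of those tested, and 191 lower, 1.08%. The median log2 difference over all genes was 0.01. Called genes that were higher moved further, with a median of 0.84 and 146 past 2-fold, than those that were lower, with a median of -0.30 and 17 past 2-fold. Between the sides of sham-operated mice 17562 genes were tested and limma called 0, which is 0% (933 at an unadjusted p under 0.05; voom called 0). The test of the difference itself, side after SNI against side after sham, called 103 of 18058 genes higher (0.57%) and 1 lower (0.00554%). All 103 were among the 394 genes called higher, while 0 of the 191 genes called lower were called lower in that test.

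**Figure D1:**
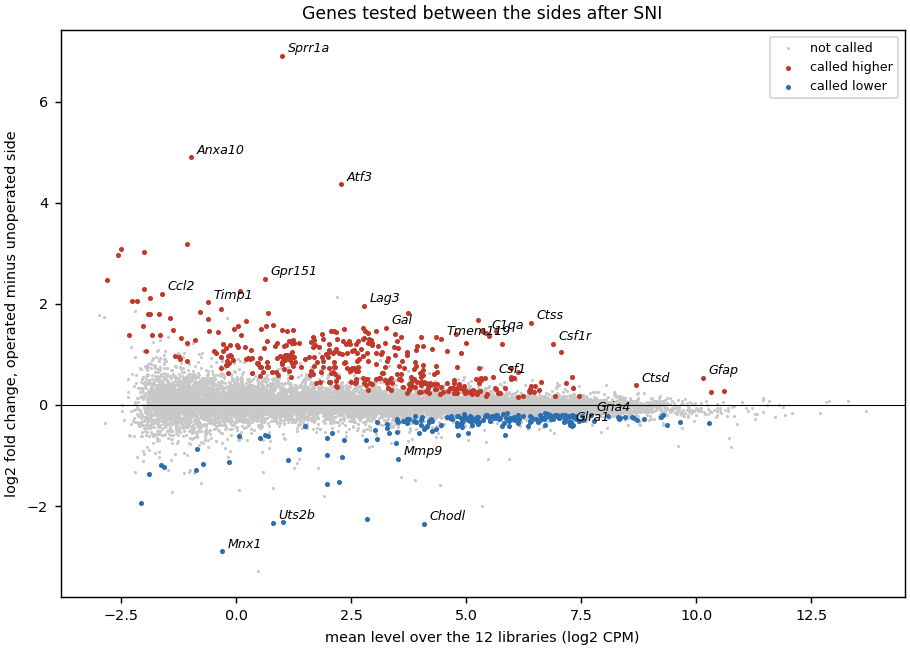
Each point is a gene tested between the sides after SNI; the horizontal axis is its mean level in log2 CPM over the 12 libraries and the vertical axis its log2 fold change, operated minus unoperated side. The 394 genes called higher spread up to 6.90 (Sprr1a), while most of the 191 genes called lower lie close to the zero line, with Mnx1 at -2.90.

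The 12 libraries held 27.98 to 39.5 M gene reads each (M for mega). The sexes matched the labels: Xist, the RNA of the inactive X chromosome, stood at 531.3 to 941.7 CPM in the F libraries. In the M libraries titled 49 to 52, 2 of each side, Xist stood at 2.28 to 3.61 CPM, beside 0.298 and 0.761 CPM in the other M libraries. Library 43 (F, ipsilateral) and library 52 (M, contralateral) stood apart from the others of their side. Library 43 had the injury gene Atf3 at the level of the unoperated side (1.02 CPM), and library 52 had the neutrophil gene S100a8 at 44.3 CPM, beside 1.39 to 3.18 CPM in the other contralateral libraries. Without both, limma called 420 genes higher and 117 lower, a repeat chosen after the data were seen, and 340 of the 394 and 104 of the 191 genes were called again. Leaving out library 45 (F, ipsilateral) left 245 genes called higher and 44 lower; leaving out library 35 (M, ipsilateral) left 407 and 325. Genes called lower fell to 87 without library 46, 85 without library 55, 94 without library 43, 96 without library 49 or library 50, 108 without library 51 and 115 without library 56.

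The largest group on the operated side, among gene lists chosen with earlier results of these data known, was that of microglial identity genes. Of its 18 measured members, 17 were called higher, 0 lower, with a median log2 fold change of 1.21 (0.24 between the sides after sham). The remaining member was Sall1, a transcription factor gene of microglia, at 0.37 (SE 0.09, adjusted p = 0.053). The summed level of the list was 388.7 to 495.8 CPM on the contralateral side and 697.7 to 1095.0 CPM on the ipsilateral side, so the sides did not overlap. Of the 18 members, 15 were also called in the test against sham. In lists described below, that test called higher 10 of 20 Fc receptor and ITAM genes, 7 of 19 pain-linked genes and 5 of 20 lysosome genes. It called 4 of 19 Toll-like receptor, 3 of 17 complement, 2 of 12 colony stimulating factor axis and 2 of 11 transcription factor genes. Of NADPH oxidase and adhesion genes 2 of 15 were called, and of activated phagocyte genes 0 of 18.

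Tmem119, a membrane protein gene used to mark resident microglia (chromosome 5, 113793729 to 113800516 on GRCm38), lay at 11.8 to 15.7 CPM contralaterally (median 14.01) and at 26.4 to 42.5 CPM ipsilaterally (median 35.3). Every ipsilateral library was above every contralateral library, and the lowest of the ipsilateral libraries was library 43. The log2 fold change was 1.31 (SE 0.08, adjusted p = 3.49e-07). Fcrls, a receptor-like gene of mouse microglia, rose by 1.34, Cx3cr1, the fractalkine receptor gene, by 1.20, and P2ry12, a nucleotide receptor gene of surveying microglia, by 1.02 on the log2 scale. A larger rise, 1.68, was that of Itgam, the integrin chain CD11b, but 68.7% of its exon length overlaps another gene on the same strand.

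Genes outside this list also had some of the smallest p-values of the comparison. Lag3, an inhibitory immune receptor gene, lay at 2.82 to 4.13 CPM contralaterally and at 8.99 to 16.6 CPM ipsilaterally (log2 fold change 1.96, SE 0.12, adjusted p = 3.51e-07). Mpeg1, the pore-forming protein of macrophages, rose by 1.37, Capn3, a calpain protease gene, by 1.52 and Fgd2, a Cdc42 exchange factor gene, by 1.46 on the log2 scale. Rasal3, a Ras GTPase-activating protein gene of blood cells, rose 2.83-fold and had one of the 6 smallest p-values in the test against sham, with a difference of 1.30.

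**Figure D2:**
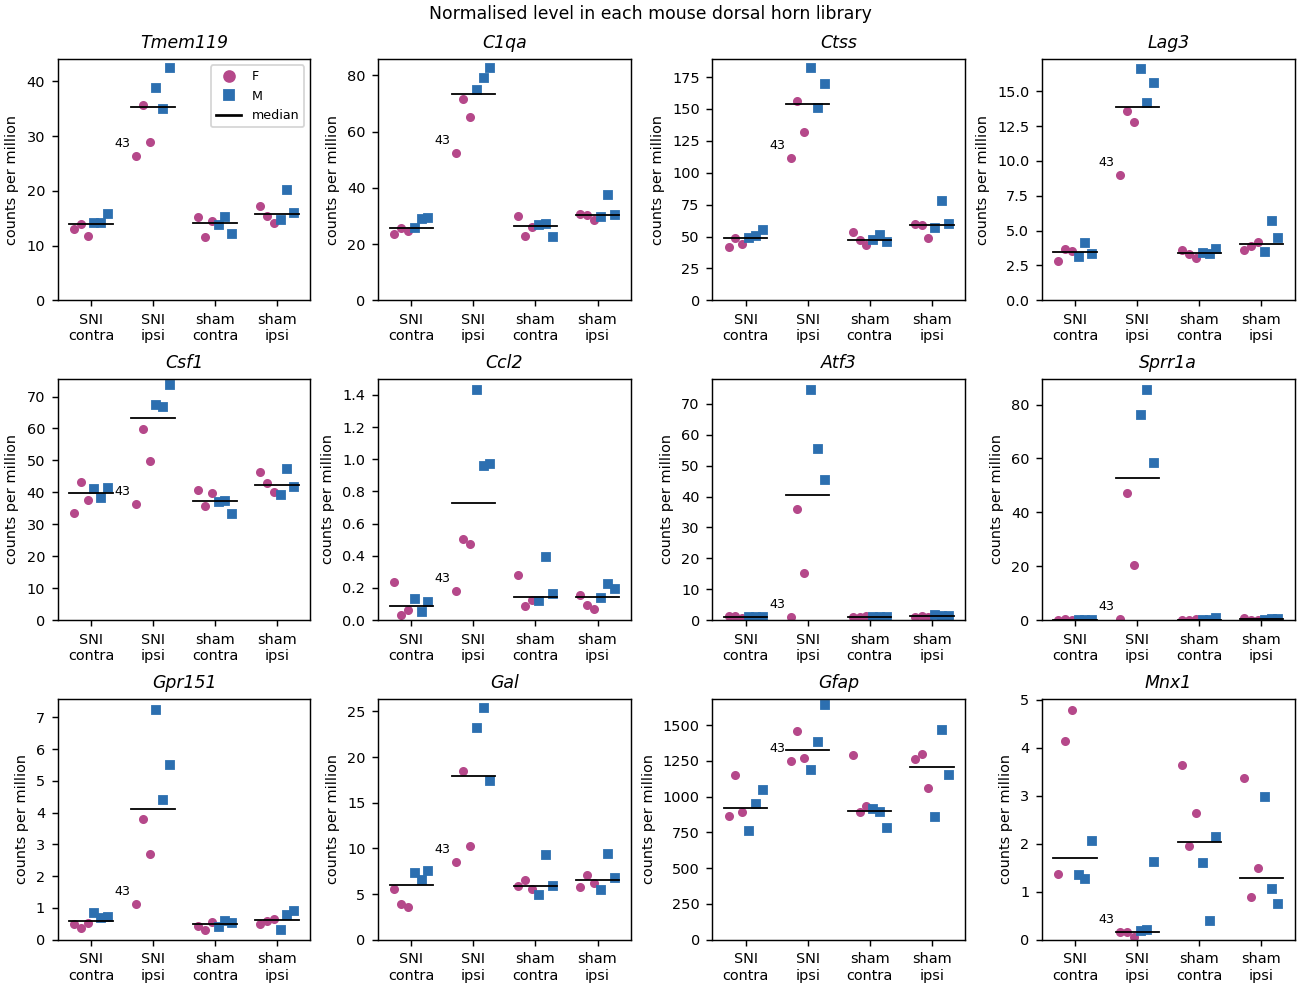
Level in CPM of 12 genes in each of the 24 mouse libraries, by surgery and side; circles are F, squares are M and lines are medians of 6 libraries. The microglial genes Tmem119, C1qa, Ctss and Lag3 separate the SNI ipsilateral libraries from all others, while library 43 lies with the unoperated side for Atf3 (1.02 CPM) and Sprr1a (0.229 CPM).

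Of 11 measured transcription factor genes of microglia, 7 were called higher and 0 lower (median 0.60). Irf8, a regulator of microglial activation, rose from a median of 4.76 to 12.1 CPM (log2 fold change 1.23, SE 0.12). Spi1, which encodes the lineage factor PU.1, rose by 1.08 and Ikzf1, a zinc finger factor of blood cells, by 1.08. The Irf8 difference was also called against sham, at 0.85.

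The colony stimulating factor axis was higher at both ligand and receptor, with 6 of 12 measured members called and 0 lower (median 0.62). Csf1r, the receptor that microglia need to survive, lay at 66.8 to 92.1 CPM contralaterally and at 128.5 to 218.9 CPM ipsilaterally, with no overlap (log2 fold change 1.21, SE 0.09, adjusted p = 4.80e-06; 15.1% of its exon length overlaps a gene of the opposite strand). Its ligand gene Csf1 (chromosome 3, 107741048 to 107760469) was at 33.5 to 43.4 CPM contralaterally and at 36.5 to 73.5 CPM ipsilaterally, with library 43 at 36.5 CPM inside the contralateral range. Csf1 rose by 0.56 (SE 0.12, adjusted p = 0.0238), and by 0.66 without libraries 43 and 52. Its call was lost without any 1 of libraries 36, 44, 45, 49, 50, 51 and 55, where the value ran from 0.51 to 0.57. The other ligand of the receptor, Il34, was at 0.31 (adjusted p = 0.153). The shared cytokine receptor chain Csf2rb2 rose by 1.57 and Csf3r, the receptor of granulocyte colony stimulating factor, by 1.26. Csf3r is also a neutrophil marker, and the other measured neutrophil genes had negative differences. The median of the neutrophil list was -1.25, or -0.27 without libraries 43 and 52. Which cells made the Csf3r transcripts was not tested.

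Of 20 measured genes of Fc receptors and ITAM signalling, the pathway of activating immune receptors, 15 were called higher and 0 lower (median 1.14). Trem2, a receptor for lipids and cell debris, rose from a median of 7.26 to 20.01 CPM (log2 fold change 1.35, SE 0.10), and the lipid phosphatase gene Inpp5d by 1.16. The antibody receptor genes Fcgr1, Fcgr2b and Fcgr3 rose by 1.30, 1.44 and 1.13, and Vav1, an exchange factor gene downstream of them, by 1.27 on the log2 scale. Activating and inhibitory receptors, the latter being Fcgr2b, thus rose together.

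Of 17 measured complement genes, 6 were called higher and 0 lower (median 0.29), namely the 3 chains of C1q, C4b, C3ar1 and Itgb2. The chains of C1q are encoded side by side on chromosome 4. C1qa (136895917 to 136898803) lay at 23.5, 25.7, 24.7, 25.9, 28.97 and 29.4 CPM in contralateral libraries 44, 46, 56, 36, 50 and 52, and at 52.3, 71.5, 65.4, 74.99, 79.2 and 82.8 CPM in ipsilateral libraries 43, 45, 55, 35, 49 and 51. The sides did not overlap. C1qa rose by 1.42 (SE 0.07, adjusted p = 5.76e-08), C1qb by 1.47 and C1qc by 1.47. In sham-operated mice C1qa was at 22.6 to 30.2 CPM contralaterally and 28.7 to 37.6 CPM ipsilaterally, and the difference between surgeries was 1.15.

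C4b, a component that follows C1q in the classical pathway, rose by 0.54, and Itgb2, the chain that pairs with Itgam as a complement receptor, by 1.17. C3ar1, a receptor of the C3a fragment, rose by 0.84, with no overlap between the sides, while the C5a receptor gene C5ar1 was at 0.29 (adjusted p = 0.628). C3, on which all complement pathways meet, was at 16.7 to 37.3 CPM contralaterally and 21.2 to 42.8 CPM ipsilaterally (0.33, SE 0.23, adjusted p = 0.540). The C1q-associated protease genes C1ra and C1s1 were at -0.08 (adjusted p = 0.902) and 0.03 (adjusted p = 0.968).

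Genes of the lysosome and phagosome were called higher for 12 of 20 measured members, with 0 lower (median 0.43). Ctss, the protease cathepsin S that microglia secrete (chromosome 3, 95526786 to 95556403), lay at 41.6 to 55.5 CPM contralaterally (median 49.2) and at 111.8 to 182.1 CPM ipsilaterally (median 153.8). No library of one side reached the other side's range, and the log2 fold change was 1.63 (SE 0.08, adjusted p = 5.76e-08). Laptm5 rose by 1.22 and Grn, the progranulin gene, by 0.74. Membrane proteins that all lysosomes carry were not called: Lamp1 was at 0.05 (adjusted p = 0.790) and Lamp2 at 0.07 (adjusted p = 0.613).

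Among genes that mark activated phagocytes in disease, 5 of 18 were called higher and 0 lower (median 0.23). Cst7, the protease inhibitor cystatin F, was at 0.0297 to 0.0965 CPM contralaterally, a few reads a library, and at 0.336 to 0.70 CPM ipsilaterally (log2 fold change 2.29, SE 0.25). Cd68 rose by 0.92. Apoe, a lipid carrier that astrocytes also make, rose from a median of 1153 to 1389 CPM, a log2 fold change of 0.25 (SE 0.05, adjusted p = 0.00786). Spp1, the osteopontin gene, was at 67.5 to 145.5 CPM contralaterally and 31.5 to 113.4 CPM ipsilaterally (-0.48, SE 0.36, adjusted p = 0.567). With the motor neuron level of each library as a covariate it was at 0.65 (adjusted p = 0.0140), and the cause of that change was not tested.

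Of 15 genes of the NADPH oxidase and leukocyte adhesion, 8 were called higher and 0 lower (median 0.74). The oxidase subunit genes Ncf1 and Cyba rose by 1.22 and 0.74. The Cyba call was lost without library 45 (0.71, adjusted p = 0.0518). Cybb, the catalytic subunit, had its highest level in library 52 at 9.96 CPM and was at -0.01 (adjusted p = 0.996), or 0.38 without libraries 43 and 52 (adjusted p = 0.634).

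Of 19 genes by which microglia are linked to pain, 12 were called higher and 0 lower (median 0.65). P2ry6, a receptor for uridine nucleotides, rose from a median of 1.41 to 3.39 CPM (log2 fold change 1.29, SE 0.12). The receptors of extracellular ATP were not called: P2rx4 lay at 16.4 to 19.7 CPM contralaterally and 16.3 to 21.5 CPM ipsilaterally (0.07, SE 0.07, adjusted p = 0.709), and P2rx7 was at 0.14 (SE 0.11, adjusted p = 0.551). Of 19 Toll-like receptors and partners, 11 were called higher and 0 lower (median 0.65). Ly86, which encodes the partner protein MD-1, rose by 1.81, Tlr7 by 1.04, Tlr1 by 1.19, Tlr2 by 0.61 and Unc93b1, which brings receptors to endosomes, by 1.10. The cytokine gene Il1a rose from a median of 0.397 to 1.61 CPM (log2 fold change 1.90, SE 0.21, adjusted p = 7.93e-05).

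**Figure D3:**
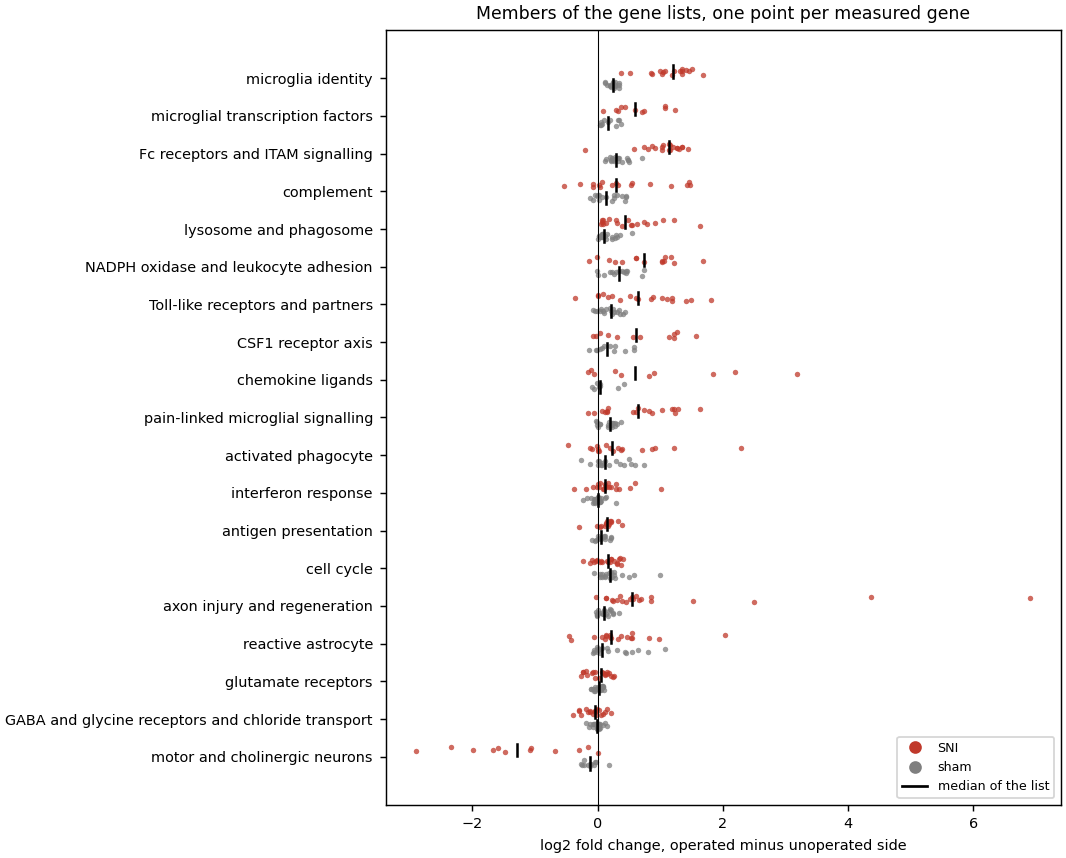
Each point is a measured member of a gene list, with its log2 fold change between the sides after SNI (red) and after sham surgery (grey); black bars are medians of the list. The microglia identity list has a median of 1.21 after SNI and 0.24 after sham, and the motor and cholinergic list one of -1.28 after SNI and -0.12 after sham.

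Of 17 listed chemokine ligand genes, 10 passed the filter on low counts, and 4 of these were called higher, with 0 lower (median 0.60). Ccl2 and Ccl7, both called, passed the filter only through ipsilateral libraries, so that count and median depend in part on the side difference itself. Of the 4 called, Ccl2, Ccl7 and Ccl12 are neighbours on chromosome 11 whose proteins attract monocytes. Their coding sequences were compared to show how far reads could be shared among them. The first 90 coding bases of each are shown on the plus strand of GRCm38 (GENCODE M21), running over an intron from 82035662 to 82036496, from 82045784 to 82046531 and from 82101900 to 82102627. Capitals mark bases that differ from Ccl2 or have no Ccl2 base opposite them in an alignment from the start codon.
Ccl2: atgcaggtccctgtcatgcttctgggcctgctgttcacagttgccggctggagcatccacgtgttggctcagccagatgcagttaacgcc
Ccl7: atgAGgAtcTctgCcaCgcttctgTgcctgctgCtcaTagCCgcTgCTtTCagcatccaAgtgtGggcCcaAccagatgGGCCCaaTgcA
Ccl12: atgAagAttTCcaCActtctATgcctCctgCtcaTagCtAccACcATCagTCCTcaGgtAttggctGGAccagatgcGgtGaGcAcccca
In these windows Ccl7 differed from Ccl2 at 27 bases and Ccl12 at 31. The longest run that the whole Ccl7 transcript shared with the Ccl2 transcript was 23 bases, and that of Ccl12 was 17 bases.

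All of these chemokines were low, at most 4.66 CPM. Ccl7 was at 0.0331 to 0.250 CPM contralaterally (median 0.0862) and at 0.229 to 4.66 CPM ipsilaterally (median 1.80). Only library 43, at 0.229 CPM, overlapped the contralateral range, and the log2 fold change was 3.18 (SE 0.53, adjusted p = 0.00444). Ccl2 rose by 2.20 (SE 0.38) and Ccl12, whose sides did not overlap, by 1.84 (SE 0.20). The differences against sham were called for Ccl2 (2.44) and Ccl7 (3.55), and that of Ccl12 was 1.51 (adjusted p = 0.0851). Ccl9 rose by 0.89, and Ccl6 was at 0.37 (adjusted p = 0.271).

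Other immune programmes were not called with the microglial genes. None of 21 interferon response genes was called by limma (1 at an unadjusted p under 0.05; voom called 0), and their median was 0.12. Irf7, a factor that amplifies interferon output, was at 1.74 to 9.31 CPM contralaterally, highest in library 36, and 2.29 to 6.27 CPM ipsilaterally. Of 15 antigen presentation genes, B2m, the light chain of class I molecules, was called (0.38, SE 0.08, adjusted p = 0.0131), while the heavy chain genes H2-K1 and H2-D1 were at 0.19 and 0.14 (adjusted p = 0.476 and adjusted p = 0.257). None of 21 cell cycle genes was called by limma (2 at an unadjusted p under 0.05; voom called 0; median 0.17). Mki67, a gene of dividing cells, was at 1.26 to 1.77 CPM in 5 contralateral libraries and at 18.9 CPM in library 52, beside 1.83 to 5.10 CPM ipsilaterally. Without libraries 43 and 52 it was at 0.78 (adjusted p = 0.0861), and 1 cell cycle gene was called.

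Lists of border macrophages and monocytes and of T and NK cells were at low levels, with no gene called by limma or voom (1 at an unadjusted p under 0.05). All 13 border macrophage and monocyte genes were tested. Of 10 T and NK cell genes only 2 passed the filter on low counts, so the rest could not be called. The summed level of border macrophage and monocyte genes was 26.3 to 72.8 CPM contralaterally and 37.1 to 71.4 CPM ipsilaterally, and that of T and NK cell genes 1.98 to 3.02 CPM and 2.15 to 3.23 CPM. Neutrophil genes had a median of -1.25 after SNI and red blood cell genes one of -0.42, with library 52 highest on the contralateral side. Without libraries 43 and 52 the medians were -0.27 and -0.08, and after sham they were 1.28 and 0.48. With the red blood cell level in the model 387 genes were called higher and 103 lower.

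Injury genes of neurons formed the other large group: of 21 measured members of the axon injury and regeneration list, 11 were called higher and 0 lower (median 0.56, and 0.10 after sham). In the test against sham 4 of the 21 were called higher. Sprr1a (chromosome 3, 92483952 to 92485895), a small proline-rich protein gene induced in regenerating neurons, was at 0.0643 to 0.327 CPM on the contralateral side. On the ipsilateral side it was at 0.229 CPM in library 43 and at 47.03, 20.4, 76.1, 85.3 and 58.5 CPM in libraries 45, 55, 35, 49 and 51. So 5 libraries were far above every contralateral library and 1 was not. The log2 fold change was 6.90 (SE 1.22, adjusted p = 0.0143), and 8.07 without libraries 43 and 52.

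Atf3 (chromosome 1, 191170296 to 191218039), a transcription factor gene switched on in neurons with cut axons, showed the same split: 0.708 to 1.22 CPM contralaterally, 1.02 CPM in library 43 and 15.2 to 74.5 CPM in the other 5 ipsilateral libraries. The log2 fold change was 4.36 (SE 0.83, adjusted p = 0.0205), and 5.11 (adjusted p = 2.71e-05) without libraries 43 and 52. The call was lost without library 36, 45, 50, 51 or 56, with values of 4.05 to 4.41. In sham-operated mice Atf3 was at 0.89 to 1.401 CPM contralaterally and 1.09 to 1.49 CPM ipsilaterally. C1qa in library 43 was above the contralateral range even so, at 52.3 CPM. The mean level of the microglia identity list in library 43 was 4.55 log2 CPM, above the contralateral range, whose highest was 3.99 in library 52. Not all microglial genes were: the transcription factor list was at 2.72 in library 43, below the 2.87 of library 52.

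Gpr151, an orphan receptor gene, was above the contralateral range in all 6 ipsilateral libraries (0.357 to 0.829 CPM and 1.12 to 7.24 CPM; 5.66-fold, adjusted p = 3.63e-05). The neuropeptide genes Gal and Npy, of galanin and neuropeptide Y, rose from medians of 6.04 to 17.9 CPM (1.53, SE 0.18) and of 12.2 to 19.6 CPM (0.85, SE 0.10). Sox11, a transcription factor gene of growing axons, rose by 0.62, and Ngfr, the low-affinity neurotrophin receptor gene, by 0.85. Gap43, a protein of growing axon ends, rose by 0.56; its call was lost without library 43, 45, 46, 49 or 50 (0.52 to 0.55).

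Other genes also differed widely between the sides. Anxa10, an annexin gene, was at 0 to 0.0643 CPM contralaterally and at 0 CPM in library 43, beside 2.29 to 11.8 CPM in the other ipsilateral libraries (log2 fold change 4.90, SE 1.04, adjusted p = 0.0305). Procr, the protein C receptor gene, rose by 1.81 (adjusted p = 0.0326). Both calls were lost in 10 of the 12 fits that left out 1 library, Anxa10 keeping its call without library 35 or 43 (range of values 4.56 to 5.94) and Procr without library 43 or 46 (1.65 to 2.21). Fst, the activin antagonist follistatin, rose by 2.25, and its difference against sham was 2.57. Treml2, a receptor gene of myeloid cells, rose by 1.70 and Slfn9, a Schlafen family gene, by 1.65, both with overlapping sides.

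Sensory neuron RNA was examined beside these injury genes. None of 8 measured dorsal root ganglion genes was called by limma or voom (2 at an unadjusted p under 0.05 by limma, median 0.09). Within the sexes, limma called 2 higher and 1 lower in F, and 1 higher and 0 lower in M. The summed level of the list was 74.9 to 147.7 CPM contralaterally and 52.5 to 114.0 CPM ipsilaterally. The nociceptor channel genes Scn10a and Scn11a did not pass the filter on low counts. Schwann cell genes had a median of -0.18, with Ngfr called. Which cells made the injury transcripts was not tested.

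Astrocyte identity genes had a median of 0.02, with Gfap the single member called of 14. Gfap, the filament gene that reactive astrocytes raise, was at 757.9 to 1156 CPM contralaterally and 1190 to 1642 CPM ipsilaterally, with no overlap (log2 fold change 0.54, SE 0.10, adjusted p = 0.00996). In sham-operated mice it was at 780.3 to 1291 CPM and 859.6 to 1464 CPM, and the difference between surgeries was 0.22 and not called by limma. No gene of the astrocyte identity or reactive astrocyte lists was called in the test against sham. Aqp4, the water channel gene, was at 0.19 (adjusted p = 0.185) and Gja1, a gap junction gene, at 0.07 (adjusted p = 0.517). In the reactive astrocyte list 4 of 19 were called higher and 0 lower: Gfap, the protease inhibitor gene Timp1 (2.03, SE 0.37), Cd44 (0.98, SE 0.20) and Aspg (0.46, SE 0.11). Vim was at 0.20 (adjusted p = 0.726). Cd44 lost its call without library 45, 49, 50, 51 or 56 (0.93 to 0.96), and Aspg in 9 of the 12 fits that left out 1 library, all but those without library 35, 44 or 52 (0.37 to 0.53).

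Among 19 targets of analgesic drugs, 4 were called higher and 0 lower (median 0.04). Ptgs1, the cyclooxygenase 1 gene that microglia express, was at 9.88 to 12.98 CPM contralaterally and 14.9 to 23.3 CPM ipsilaterally, without overlap (log2 fold change 0.72, SE 0.09, adjusted p = 0.00019; 0.56 against sham, adjusted p = 0.0322). Scn9a, the sodium channel Nav1.7 of sensory and motor neurons, rose by 1.06 (SE 0.21, adjusted p = 0.0186), a call lost without library 36 or 56 (0.99 and 0.97). Scn9a was also not called in F alone (0.85), with motor neuron level as a covariate (1.16) or without libraries 43 and 52. Slc6a4, the serotonin transporter gene, was at 0 to 0.361 CPM contralaterally and 0.178 to 1.13 CPM ipsilaterally (2.12, SE 0.38, adjusted p = 0.0053). Cnr2, the cannabinoid receptor of immune cells, rose by 0.98 (adjusted p = 0.0374); its call was lost in 9 of the 12 fits that left out 1 library, all but those without library 43, 44 or 52, at values of 0.87 to 1.01 (adjusted p up to 0.0981). The opioid receptor gene Oprm1 was at -0.15 (adjusted p = 0.549) and Oprd1 at -0.41 (adjusted p = 0.0857).

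The genes that fell furthest included several of motor neurons, though 0 of the 191 genes called lower were called lower in the test against sham. Of 12 motor and cholinergic genes, 4 were called lower and 0 higher (median -1.28, and -0.12 after sham); without libraries 43 and 52 1 was called lower. In F alone 7 were called lower and 0 higher. In M alone 0 were called lower and 3 higher, namely Calca, the gene of the peptide CGRP, at 1.27, the filament gene Prph at 0.64 and the receptor gene Ret at 0.69, all of which sensory neurons also express. Mnx1, the homeobox gene that defines motor neurons (chromosome 5, 29473034 to 29478470), was at 1.36, 4.13, 4.79, 1.36, 1.27 and 2.05 CPM in contralateral libraries 44, 46, 56, 36, 50 and 52, and at 0.153, 0.159, 0.0672, 0.183, 0.213 and 1.63 CPM in ipsilateral libraries 43, 45, 55, 35, 49 and 51. The ipsilateral libraries were lower except for library 51, which lay inside the contralateral range. Mnx1 fell by 2.90 on the log2 scale (SE 0.59, adjusted p = 0.0204), but was not called without library 43, 45, 49 or 55 (-2.65 to -2.85). Chodl, a gene of fast motor neurons, fell by 2.35 (SE 0.54, adjusted p = 0.0467); its call held in 1 of the 12 fits that left out 1 library, that without library 51, and the value was -2.52 to -2.09 in the other 11. Chat, which encodes the enzyme that makes acetylcholine, was at -1.49 (SE 0.43, adjusted p = 0.107). Ache, the enzyme that breaks acetylcholine down, fell by 0.30, or by 0.25 without library 45 (adjusted p = 0.0501).

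Genes outside that list also fell far. Uts2b fell by 2.34 (SE 0.45, adjusted p = 0.0152), Vipr2, a receptor of vasoactive intestinal peptide, by 2.31 (SE 0.41) and Grin3b, a glutamate receptor subunit gene expressed in motor neurons, by 1.52 (SE 0.27), each called in all 12 fits that left out 1 library. Kcnj14 fell by 2.26 and Lhx4 by 1.57, calls that were lost in 9 and 10 of those 12 fits, at values of -2.66 to -2.07 and -1.74 to -1.32. Kcnj14 kept its call without library 36, 51 or 52, and Lhx4 without library 35 or 51. With the motor neuron level of each library as a covariate none of these 5 genes was called by limma; Uts2b was at -0.88 (adjusted p = 0.0883) and Vipr2 at -1.14 (adjusted p = 0.130). C1ql4, a C1q-like gene, was below the contralateral range in every ipsilateral library (0.331 to 0.684 CPM and 0.0313 to 0.303 CPM). It fell by 1.22 on the log2 scale (SE 0.26, adjusted p = 0.0179), and by 1.57 with motor neuron level as a covariate (adjusted p = 0.0336); between the sides after sham it was at -1.19 and not called by limma, and its call was lost without library 45 (-1.17). Sox14, a transcription factor gene, fell by 1.29 (SE 0.21, adjusted p = 0.00281), or was at -0.85 with that covariate (adjusted p = 0.151).

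**Figure D4:**
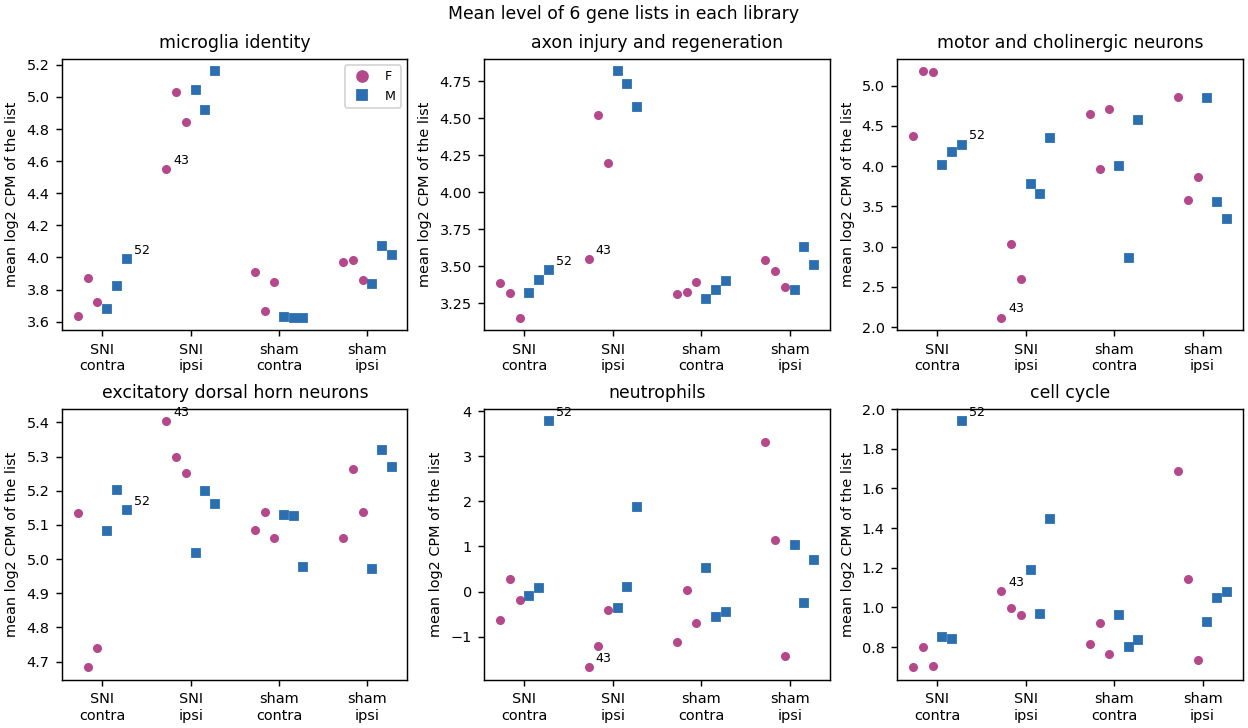
Mean log2 CPM of 6 gene lists in each of the 24 mouse libraries, by surgery and side, with libraries 43 and 52 marked; circles are F and squares are M. The microglia list separates the SNI ipsilateral libraries from the others, the motor and cholinergic list is lowest in library 43, and the neutrophil list is highest in library 52.

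The motor neuron level moved with side and sex beside the genes called lower, and its part in them was not tested beyond a fit with that level as a covariate. In F libraries the mean level of the motor and cholinergic list was 4.38 to 5.18 log2 CPM contralaterally and 2.12 to 3.03 ipsilaterally. In M libraries it was 4.01 to 4.27 and 3.65 to 4.35. The list also varied without nerve injury. In sham-operated mice it was at 3.96 to 4.72 contralaterally and 3.58 to 4.86 ipsilaterally in F, and at 2.86 to 4.57 and 3.34 to 4.85 in M. Library 38 (M, sham contralateral), at 2.86, lay inside the range of the SNI ipsilateral F libraries, and the other sham libraries lay above it. After SNI the median side difference of the list members was -2.72 in F alone and -0.25 in M alone. That of 17 genes of excitatory dorsal horn neurons was 0.57 in F and -0.06 in M. Where the tissue was cut and what the injury did to motor neurons cannot be told apart with these labels. With motor neuron level as a covariate limma called 451 genes higher and 35 lower, among them 261 of the 394 and 10 of the 191. All 17 microglia identity genes called without it, and Sall1, were called with it, at a list median of 1.43.

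A minority of receptor and channel genes was called lower. Among 20 glutamate receptor genes, 3 were called lower and 0 higher (median 0.05). The list had 0 lower and 2 higher in F alone, 0 called in M alone, and 1 lower with motor neuron level as a covariate. The AMPA receptor genes Gria3 and Gria4 were at -0.23 and -0.19, calls lost in 9 and 8 of the 12 fits that left out 1 library (-0.27 to -0.20 and -0.22 to -0.17). Gria3 kept its call without library 35, 43 or 52, and Gria4 without library 35, 44, 52 or 56. Gria1 and Gria2 were at 0.26 and 0.14 (adjusted p = 0.114 and adjusted p = 0.529).

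Among 21 genes of GABA and glycine receptors and chloride transport, 3 were called lower and 0 higher (median -0.04); 1 was called lower in F alone and 1 in M alone, and 2 with motor neuron level as a covariate. Glra1, the main adult glycine receptor subunit, was at 152.5 to 209.6 CPM contralaterally and 123.7 to 145.4 CPM ipsilaterally, with no overlap, and fell by 0.40 (SE 0.06, adjusted p = 0.00136). Its partner subunit Glrb fell by 0.27, a call lost without library 43, 45, 46, 50, 51 or 55 (-0.27 to -0.25), and Gabrb2, a GABA receptor subunit, by 0.30 (SE 0.06). In sham-operated mice Glra1 was at -0.19 between the sides, and its difference between surgeries was -0.21 and not called by limma. With motor neuron level as a covariate Glra1 was at -0.30 (adjusted p = 0.0511) and Gabrb2 at -0.34 (adjusted p = 0.0331). The enzyme genes of GABA synthesis, Gad1 and Gad2, were at 0.06 and 0.01; Gad1 was at -0.29 (adjusted p = 0.0121) with motor neuron level as a covariate.

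Of 27 voltage-gated channel genes, 1 was called higher, Scn9a, and 2 lower (median -0.01). Within the sexes, 0 were called higher in F and 1 in M, and 0 lower in either. With motor neuron level as a covariate 0 were called higher and 1 lower, and without libraries 43 and 52 0 higher and 2 lower. The lower ones in the fit of all 12 libraries were Kcna2, an axonal potassium channel gene (-0.34, SE 0.07, adjusted p = 0.0119), and Scn1a, the sodium channel of fast-spiking neurons (-0.30, SE 0.07, adjusted p = 0.0299). Scn1a lost its call without library 36, 43, 45, 46, 49, 50 or 51 (-0.30 to -0.27). Scn2a was at 0.13 (adjusted p = 0.585). None of 14 pan-neuronal genes was called by limma (6 at an unadjusted p under 0.05; voom called 1), and 2 were called lower without libraries 43 and 52. In F alone 4 were called lower (median -0.34), in M alone 2 were called higher (median -0.10), and with motor neuron level as a covariate 2 were called higher. Rbfox3, which encodes the neuronal marker NeuN, was at -0.01 (SE 0.05) and Snap25 at -0.27 (adjusted p = 0.0548).

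Of 15 genes of inhibitory dorsal horn neurons, 2 were called higher, Gal and Npy, and 0 lower (median 0.11). In F alone 4 were called higher (median 0.33) and in M alone 2 (median -0.05). Neuropeptide and opioid genes had Gal and Npy called of 20 measured. Of that list, limma called 4 higher and 1 lower in F alone, and 3 higher and 0 lower in M alone. Tac1, the substance P precursor, was at 0.47 (SE 0.20, adjusted p = 0.289) and its receptor gene Tacr1, carried by projection neurons, at -0.11 (adjusted p = 0.425). Nts, the neurotensin gene, rose by 0.31 (adjusted p = 0.0445), a call that held only without library 44 or 52 among the 12 fits that left out 1 library (range 0.25 to 0.36); it was the single member called of 17 genes of excitatory dorsal horn neurons.

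Sterol synthesis genes had 2 of 17 members called lower and 0 higher (median -0.14). In F alone 2 were called lower and in M alone 0; without libraries 43 and 52 the count was 0, and with motor neuron level as a covariate 0 were lower and 1 higher (median -0.02). Insig1, a brake on sterol synthesis, fell by 0.26 (adjusted p = 0.0400) and was not called without library 36, 43, 45, 46, 49, 52, 55 or 56 (-0.28 to -0.22). Hmgcs1, an early enzyme of the pathway, was at -0.10 (adjusted p = 0.552).

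In the extracellular matrix, Ncan, a chondroitin sulphate proteoglycan of the perineuronal net, was at 91.1 to 112.8 CPM contralaterally and 78.2 to 87.6 CPM ipsilaterally, without overlap (-0.27, SE 0.05, adjusted p = 0.00959). The aggrecan gene Acan was at -0.15 and Bcan at -0.11, neither called. Mmp9, a matrix protease also listed with motor neuron genes, fell by 1.06 (SE 0.25, adjusted p = 0.0481), a call lost in 9 of the 12 fits that left out 1 library (-1.16 to -0.94) and kept without library 36, 44 or 51. Of 18 genes in that list, 1 was called higher, Timp1, and 2 lower. In F alone 1 was called lower, in M alone 0, and without libraries 43 and 52 1. With motor neuron level as a covariate 0 were called lower, with Ncan at -0.16, and against sham 0 were called lower.

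Side differences of the called genes leaned the same way in the sham libraries, which share no library with the SNI comparison, although limma called none of them there. Of the 394 genes called higher, 372 were measured in sham and 342 had a difference above 0, with a median of 0.18; over all genes the sham median was 0.00. Of the 191 genes called lower, 185 had a difference below 0 in sham, with a median of -0.10. Genes are not independent replicates, and the size of these shares was not tested.

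**Figure D5:**
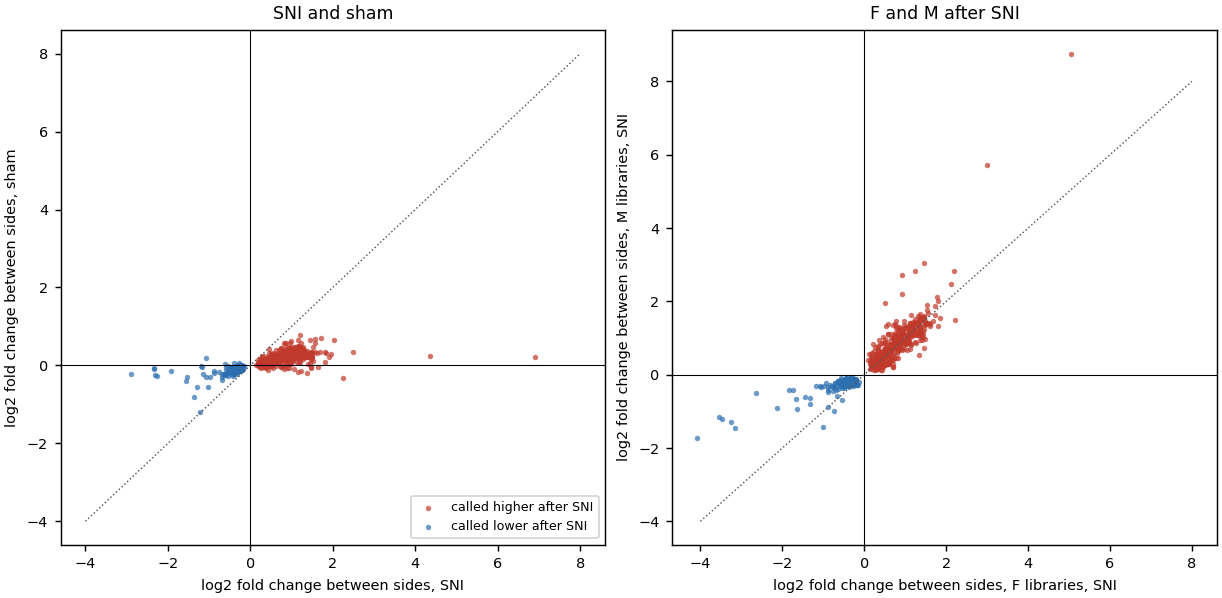
Log2 fold changes between the sides for the 394 genes called higher (red) and the 191 called lower (blue) after SNI; the left panel sets SNI against sham and the right panel F against M libraries after SNI, with a dotted line of equality. Sham differences lie near 0 (medians 0.18 and -0.10), and the lower genes reach further down in F than in M.

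Whether sex changed the side difference after SNI was tested with the interaction of side and sex. Limma called 2 of 17634 genes, 0.0113%, with 2340 at an unadjusted p under 0.05. Bcl6, a transcriptional repressor gene, was at 32.5, 39.7 and 41.03 CPM contralaterally and 20.5, 21.4 and 19.5 CPM ipsilaterally in F, beside 28.7, 32.1 and 28.99 CPM and 29.7, 29.97 and 31.03 CPM in M. It was lower on the operated side in F libraries and level in M libraries, and the difference M minus F was 0.89 (SE 0.12, adjusted p = 0.0355). Cda, a cytidine deaminase gene, was at 8.16, 10.9 and 9.90 CPM contralaterally and 6.29, 6.54 and 7.09 CPM ipsilaterally in F, beside 6.89, 6.74 and 7.49 CPM and 12.4, 10.8 and 10.4 CPM in M. Its sides moved in opposite directions, and the difference M minus F was 1.18 (SE 0.16, adjusted p = 0.0355). The count of this test rested on single libraries: it was 1039 without library 44 and 66 without library 45, both F, and 0 without any other 1 of the 12. The next genes by p were Pmaip1 and Lifr, both with an adjusted p = 0.0866.

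Within each sex, 226 genes were called higher and 180 lower in F, and 309 and 8 in M. The microglia identity list had a median of 1.13 in F, with 15 members called, and 1.28 in M, with 17 called. In the axon injury list 4 members were called in F and 11 in M, with library 43 among the 3 ipsilateral F libraries; Atf3 was at 2.99 in F and 5.73 in M. The interaction with sex was not called for any gene of either list.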

How the data were processed

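The values are whole-number read counts per gene as deposited, with no normalization by the authors. STAR as aligner and GRCm38 and mm10 as builds come from the submitters' processing notes. Neither the counting program nor its strand setting or annotation was given in the sources, so reads of overlapping genes cannot be assigned. Each table ends with 5 entries that name no gene; genes held 73.5% to 76.1% of all entries in these 12 libraries, and the 5 entries were left out.

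A test on counts was not run, because the tables are tab-separated under a comma-separated name and their number column could not be registered as counts. Limma 3.58.1 (R 4.3.3) was instead run on log2 CPM with a prior count of 2, which understates fold changes of low genes, after scaling by the trimmed mean of M-values (trimming 30% of ratios and 5% of levels; factors 0.946 to 1.04). Genes needed about 10 counts in 3 libraries and a total of 15. A gene high on 1 side could pass through that side alone, as Ccl2, Ccl7, Cst7 and Anxa10 did. Sex was a covariate; tests were two-sided with Benjamini-Hochberg adjustment. The interaction with surgery used all 24 mouse libraries. Libraries of a group differed by chi-square of 6.50 to 33.9 per degree of freedom, so none was a duplicate. The fit was tested on simulated counts with known changes.

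Identifiers were matched to GENCODE M21 names for 40340 of 41388, holding 99.9% of gene reads. Members and the 43 gene lists were chosen with earlier results of these data known. Genes were named by rule: the 15 largest higher and 10 largest lower called genes with at least 1 CPM, the 10 smallest p-values, up to 4 called and the first 2 measured members of a list, and the 6 smallest p-values of the interactions. Sall1, C3, C4b, C1ra, C1s1, C3ar1, C5ar1, Laptm5, Gap43, C1ql4, Sox14, Calca, Prph, Ret, Scn10a and Scn11a were named after their values were seen; the rule also picked some genes that are not reported here. The lists of immediate early genes, heat shock proteins, mitochondrially encoded genes, oligodendrocytes and their precursors, endothelium and pericytes, meningeal fibroblasts and ependymal cells had no member called by limma or voom, with 0 to 3 members at an unadjusted p under 0.05.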

Additional observations from a re-analysis of the deposited data

Results flagged for a closer look

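For 146 genes named or looked up for the text, each side's 6 SNI libraries were searched for a value far from the other 5. The gap to the nearest library, as a share of the group's range and both in log2 CPM, was set against Dixon's 95% critical value. Chance sets apart about 1 in 20 groups, and 20 of the 292 groups had such a value.

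Of these values, 5 were in library 52, contralateral: Mki67 at 18.9 CPM, Top2a at 6.99 CPM, S100a8 at 44.3 CPM, S100a9 at 66.6 CPM and C1qc at 30.2 CPM, all above the other contralateral libraries. In library 43, ipsilateral, 5 values lay below the other ipsilateral libraries: Fcrls at 25.4 CPM, C1qc at 48.1 CPM, Atf3 at 1.02 CPM, Sprr1a at 0.229 CPM and Anxa10 at 0 CPM. Library 51, ipsilateral, was above the others for Mki67 (5.10 CPM), Mnx1 (1.63 CPM), Vipr2 (2.78 CPM) and Aspg (4.598 CPM). In library 46, contralateral, Lamp2 at 147.9 CPM and Procr at 1.16 CPM were high and Slc17a6, a glutamate transporter gene of excitatory neurons, was low at 222.0 CPM. P2ry12 was low in library 44 (17.96 CPM), Ache high in library 56 (236.4 CPM) and Gja1 low in library 55 (324.2 CPM). The part that any of these libraries had in the counts of called genes is given by the fits without them.

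The side difference after SNI differed between M and F libraries by the test of the interaction for Bcl6 (0.89 on the log2 scale, M minus F, adjusted p = 0.0355) and Cda (1.18, adjusted p = 0.0355; limma).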

How the results depend on the processing

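Between the sides after SNI, 394 genes were called higher and 191 lower. In the libraries titled 33 to 48 alone the counts were 63 and 3, in those titled 49 to 56 alone 172 and 20, and in F alone 226 and 180; M alone gave 309 and 8. Genes called lower numbered 469 with all 24 mouse libraries in 1 fit, 35 with the motor neuron level, 103 with the red blood cell level and 117 without libraries 43 and 52. Leaving out each library gave 245 to 421 called higher and 44 to 325 lower. Voom, median-of-ratios scaling, library totals, no filter on low counts, a prior count of 0.5, no sex covariate and the title range as covariate kept both counts within 1.5 times. For the test against sham (103 higher, 1 lower) the counts were 183 and 2 without libraries 43 and 52, and 207 higher with the motor neuron level, both chosen after the data were seen; leaving out each library gave 81 to 152 higher and 0 to 5 lower. Sham sides had 0 to 1 genes called when each library was left out. The interaction with sex had 2 genes called, 0 with no filter, 1 with the title range and 0 to 1039 when each library was left out. With motor neuron level as a covariate Spp1 turned from -0.48 to 0.65 and Gad1 from 0.06 to -0.29, and in M alone Calca turned from -0.15 to 1.27 and Prph from -1.08 to 0.64. Spp1, Gad1, Calca and Prph were not called between the sides in the fit of all 12 libraries, so no call was reversed. No other named gene changed sign while called in either of the fits compared. The cause of these changes was not tested. Of 94 called genes among the 146 named or looked up for the text, 68 were called in all 12 fits that left out 1 library. No paired analysis was possible because no label links the libraries of 1 animal, and the replicate numbers were given in accession order. Genes under about 1 CPM rest on few reads.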
